A study of Mus musculus with 32 samples.

Results

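Ezh2 and Cbx5, the chromatin repressors on these arrays, and the histone deacetylase spots of the same membrane were followed over all 32 arrays of a study of mouse prefrontal cortex. A spot was taken when its title named enhancer of zeste homolog 2, named chromobox homolog 5 (HP1 alpha) or contained the words histone deacetylase, with the titles of ESTs (short tags read from cDNA clones) ignored. The rule found 5 spots, for Ezh2, Cbx5, Hdac1, Hdac5 and Hdac6, among 1160 titled gene spots without ESTs and 4696 gene spots in all. Each was the only spot of its UniGene cluster on the membrane, namely Mm.4303 for Ezh2, Mm.28408 for Cbx5, Mm.2602 for Hdac1, Mm.22665 for Hdac5 and Mm.29854 for Hdac6, so no member has a second clone that could check it.

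The mice came from lines bred selectively from genetically heterogeneous stock for severe (WSP, withdrawal seizure-prone) or mild (WSR, withdrawal seizure-resistant) convulsions after ethanol withdrawal, and each direction was bred as 2 separate lines, WSP-1 and WSP-2 or WSR-1 and WSR-2. EtOH mice were injected with ethanol at 1.5 g/kg, or a higher dose in WSP-2, and breathed ethanol vapor for 72 h. Air mice received no ethanol, and both treatments included 68.1 mg/kg of pyrazole, which blocks alcohol dehydrogenase, so the Air mice are pyrazole-treated controls. Tissue was taken after 21 days of abstinence. The 8 groups were male WSP EtOH, male WSP Air, male WSR EtOH, male WSR Air, female WSP EtOH, female WSP Air, female WSR EtOH and female WSR Air. Each group held 4 arrays, replicates 1 and 2 from the first breeding line and 3 and 4 from the second, and each array carried RNA pooled from 2 animals, so that a p-value here reflects how far pools differ and a selection direction rests on 2 lines.

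EZH2 is the catalytic subunit of Polycomb repressive complex 2, which methylates a lysine in the tail of histone H3 and so helps to keep genes silent. It is best known in dividing and progenitor cells, and its level is low in most mature neurons. HP1 alpha, the product of Cbx5, binds histone H3 that is methylated on another lysine and holds heterochromatin compact. Histone deacetylases remove acetyl groups from lysines: HDAC1 is a nuclear enzyme that works within repressor complexes such as SIN3, HDAC5 shuttles between nucleus and cytoplasm and binds MEF2 factors, and HDAC6 is mostly cytoplasmic and deacetylates tubulin. In bulk tissue, fewer cells of a type and less RNA per cell cannot be told apart.

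As background, the 250 bases before the RefSeq start of Ezh2 and of Cbx5 are shown (build GRCm38.p6, minus strand, 5′ to 3′). Their part in the brightness of the spots was not tested. The Ezh2 window is chr6:47595031-47595280 and the Cbx5 window, at the first of 2 annotated starts, is chr15:103239853-103240102. Capitals mark matches, on either strand, to the CCAAT box, whose letters were searched as written here, and to the GC box, searched as GGGCGG.
Ezh2: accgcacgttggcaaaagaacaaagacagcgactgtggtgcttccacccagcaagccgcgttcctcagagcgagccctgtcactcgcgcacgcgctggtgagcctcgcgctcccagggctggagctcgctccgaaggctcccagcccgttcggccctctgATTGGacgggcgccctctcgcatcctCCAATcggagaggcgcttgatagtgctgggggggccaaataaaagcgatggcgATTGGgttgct
Cbx5: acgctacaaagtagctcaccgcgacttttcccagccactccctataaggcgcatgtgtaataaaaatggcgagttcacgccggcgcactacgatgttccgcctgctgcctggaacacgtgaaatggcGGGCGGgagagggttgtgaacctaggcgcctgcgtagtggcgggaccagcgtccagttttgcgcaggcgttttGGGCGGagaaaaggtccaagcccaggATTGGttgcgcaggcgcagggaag
The Ezh2 window held 3 CCAAT matches and 0 GGGCGG matches. The Cbx5 window held 1 CCAAT match and 2 GGGCGG matches, and the window at its second start held 0 and 1. Among 32851 RefSeq windows of the same length, 33.8% held CCAAT and 32.7% held GGGCGG. The E2F core, searched only as TTTGGCG, was in neither window and in 1.3% of all windows, and no matches overlapped. Both windows were rich in CpG, with 23 CpG for Ezh2 and 22 for Cbx5 against a median of 6, and 86.7% and 85.2% of windows had fewer. The window at the second Cbx5 start held 7 CpG, near the median. A match is a run of letters and not a shown binding site.

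Intensity is given as times Background, the spot's deposited intensity over the single Background value of its array, and a spot is called measurable on an array at 2 times Background or more. The male WSR arrays stood apart as a whole before any gene was considered. They had 1682 to 2040 gene spots at 2 times Background, against 518 to 604 on male WSP, 588 to 1428 on female WSP and 783 to 1095 on female WSR arrays. Their median gene spot lay at 1.43 to 1.70 times Background, and their 192 genomic DNA control spots had medians of 2.16 to 12.9 times Background, against 1.03 to 1.88 on the other 24 arrays. The labels give no batch for the hybridisations, so the brightness of these arrays and the male WSR groups cannot be told apart. Among tissue markers, glutamine synthetase of astrocytes was measurable on all 32 arrays, at 57.9 times Background on male WSR arrays and 14.8 on the others, and synapsin I of neurons on 11 arrays, at 2.75 and 1.63. Transthyretin of choroid plexus (110.3 and 32.1 times Background) and one hemoglobin alpha spot (99.6 and 40.2) were also measurable on every array. Of the other 3 hemoglobin spots, the hemoglobin beta chain complex was measurable on all 8 male WSR arrays, at 4.70 times Background against 1.06 on the others, and on 1 further array, and the remaining 2 on 0 arrays. In WSP against WSR males hemoglobin beta chain complex differed by -0.31 (adjusted p = 0.0047, limma on normalized values) and hemoglobin alpha by 0.40 (adjusted p = 0.00021). In that contrast 58.3% of all tested spots were called. Hemoglobin beta chain complex entered the test through its male WSR arrays, and hemoglobin alpha was brighter on male WSR arrays before normalization. Transthyretin (-0.29), myelin proteolipid protein (0.34), endoglin (0.31) and proliferating cell nuclear antigen (-0.099) were also called. Glutamine synthetase (0.22) and synapsin I (0.075) were not. The part of these sources in the results was not tested.

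Ezh2 was measurable on 8 arrays, which were the 8 male WSR arrays. Its spot lay at 5.47, 7.48, 7.66 and 13.4 times Background on male WSR EtOH arrays and at 3.99, 4.66, 5.80 and 4.46 on male WSR Air arrays. On the other 24 arrays it lay between 0.709 and 1.35, with a median of 1.00, which is the background itself. The lowest male WSR array was therefore above the highest array of any other group. Group ranges were 0.947 to 1.12 in male WSP EtOH, 0.966 to 1.10 in male WSP Air, 0.943 to 1.12 in female WSP EtOH, 0.916 to 1.13 in female WSP Air, 0.830 to 1.35 in female WSR EtOH and 0.709 to 1.07 in female WSR Air mice. These 6 groups overlapped one another.

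Cbx5 was measurable on 9 arrays, the 8 male WSR arrays and 1 female WSP Air array. It lay at 12.4, 18.02, 19.2 and 19.9 times Background on male WSR EtOH arrays and at 9.43, 14.6, 11.8 and 11.3 on male WSR Air arrays. On the other 24 arrays it lay between 0.842 and 2.06, with a median of 1.28, and the 2.06 was replicate 3 of female WSP Air. The order of the remaining group means was female WSP Air (1.72 ± 0.31), female WSR EtOH (1.59 ± 0.22), female WSP EtOH (1.37 ± 0.24), male WSP EtOH (1.16 ± 0.13), male WSP Air (1.08 ± 0.076) and female WSR Air (1.08 ± 0.21, SD, n = 4 each). Neighbouring groups in this order overlapped.

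Hdac1 was measurable on 2 arrays, both male WSR EtOH. It lay at 1.43, 2.33, 1.87 and 2.66 times Background on male WSR EtOH arrays and at 1.74, 1.87, 1.66 and 1.70 on male WSR Air arrays. The other 24 arrays lay between 0.730 and 1.38, so the male WSR arrays were again all above the rest, although most of them were under 2 times Background. Hdac5 was measurable on 0 arrays, with 0.749 to 1.38 times Background on male WSR arrays and 0.719 to 1.28 on the others, and these overlapped. Hdac6 was measurable on 2 arrays that belong to different groups, male WSR EtOH replicate 2 at 2.62 and female WSP Air replicate 3 at 5.23, while its male WSR arrays as a whole (0.945 to 2.62) lay within the range of the others (0.904 to 5.23). The plot of all 5 spots by group shows Ezh2 and Cbx5 far above the line of 2 times Background on male WSR arrays and near 1 elsewhere.

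**Figure D1:**
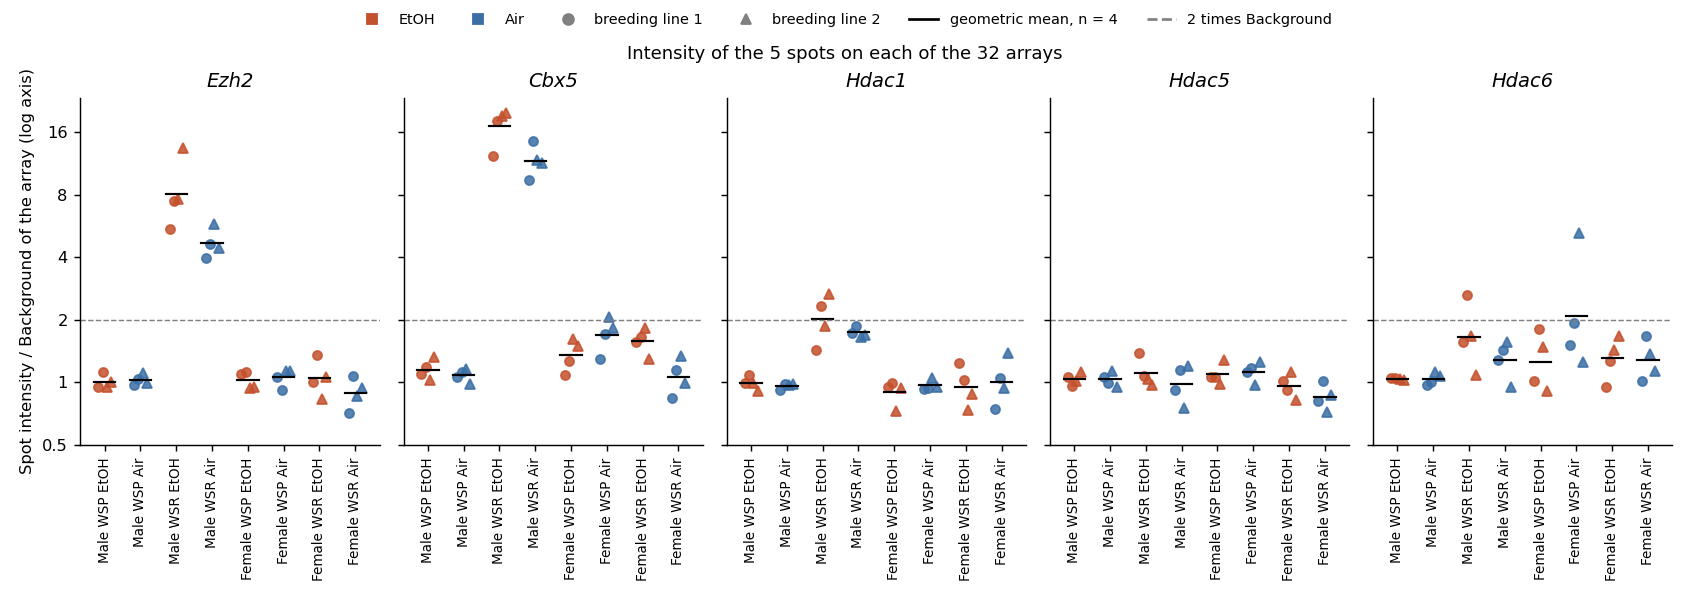
Spot intensity over the Background of the array, on a log2 axis, for Ezh2, Cbx5, Hdac1, Hdac5 and Hdac6 on 32 arrays in 8 groups. Points are arrays (orange EtOH, blue Air, circles first and triangles second breeding line), black bars are geometric means of 4 arrays, and the dashed line is 2 times Background. Ezh2 lies at 3.99 to 13.4 on male WSR arrays and at 0.709 to 1.35 elsewhere.

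That brightness was set against all gene spots of the membrane. Of the 4696 gene spots, 5.37% were at 2 times Background on all 8 male WSR arrays and on no other array, as Ezh2 was. For 22.4% of gene spots the lowest male WSR array exceeded the highest of the other 24, as held for 3 of the 5 members (Ezh2, Cbx5 and Hdac1). The mean difference in log2 times Background between male WSR arrays and the others was 2.61 for Ezh2, 3.44 for Cbx5, 0.96 for Hdac1, 0.17 for Hdac6 and 0.046 for Hdac5, against a median of 0.46 over all gene spots. Ezh2 was rank 440 and Cbx5 rank 243 of 4696 by this difference, and Hdac5 and Hdac6 lay below the median. By position within an array, Ezh2 was brighter than 76.7% to 83.0% of gene spots on male WSR arrays and than 10.99% to 63.4% on the others. For Cbx5 these were 83.0% to 85.3% on male WSR arrays and 30.2% to 82.7% on the others. Position varies widely for a spot at background, and the share of all gene spots that separate in this way was not counted. These positions are therefore a description and are not free of the brightness of the arrays.

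**Figure D2:**
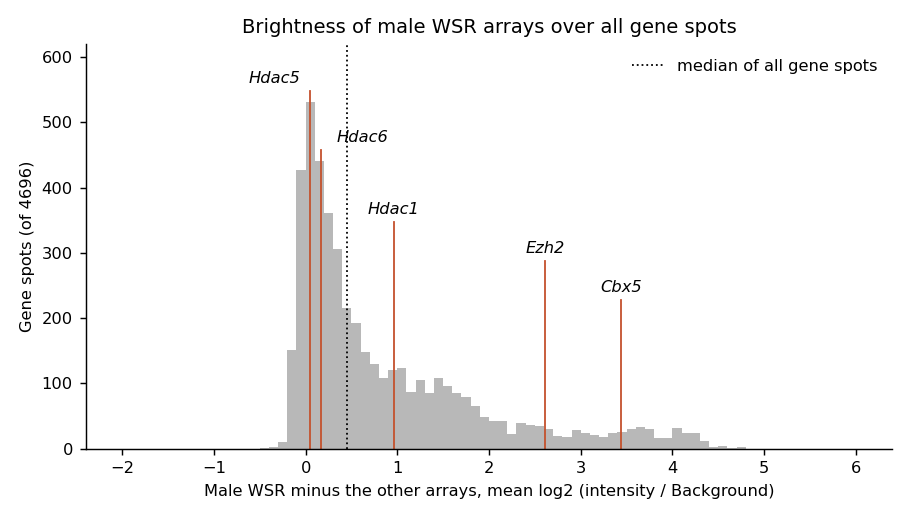
Histogram over 4696 gene spots of the mean log2 intensity over Background on the 8 male WSR arrays minus that on the other 24 arrays. Orange lines mark the 5 spots and the dotted line marks the median of 0.46. Ezh2 (2.61) and Cbx5 (3.44) lie in the upper tail, Hdac1 (0.96) above the median, and Hdac5 (0.046) and Hdac6 (0.17) below it.

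Spots that touch those of the members were read to see what surrounds them on the membrane. Ezh2 had 7 adjacent spots, of which 6 were at 2 times Background on no male WSR array. The remaining 1, an EST on the diagonal, averaged 6.61 on male WSR arrays and 1.02 on the others, close to Ezh2 itself (6.62 and 1.01). The part of this EST in the Ezh2 value was not tested. Cbx5 had bright neighbours, among them the proteasome subunit Psmd7, at 64.1 times Background on male WSR arrays and 34.2 on the others. Beside those neighbours Cbx5 averaged 14.6 on male WSR arrays and 1.33 on the others. Their part in the Cbx5 value was not tested.

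The study's first design question is how the selected lines differ. For it, intensities were background-corrected, put on the log2 scale and quantile normalized, and 2084 gene spots at 2 times Background on at least 4 arrays were tested with limma; normalization forces all arrays to 1 distribution, and the correction offset compresses the differences of dim spots. Of the 5 members 2, Ezh2 and Cbx5, passed this filter, and both passed it through the male WSR arrays, so their differences from male WSR had to be large. In males, Ezh2 averaged 5.77 in WSP and 6.21 in WSR (log2), a WSP minus WSR difference of -0.44 ± 0.036 (SE, adjusted p = 9.33e-12, limma, n = 8 arrays a line). Cbx5 averaged 5.93 in WSP and 6.54 in WSR males, a difference of -0.61 ± 0.069 (adjusted p = 4.62e-09). Both were lower in WSP males, in a contrast in which 58.3% of the tested spots were called and 34% were called as lower, so a call there is the rule among these spots. Of those calls 508 were higher and 708 lower in WSP, against 2 and 1803 under median scaling, where the median spot shifted by -0.67, and 0 and 2059 without normalization, where it shifted by -1.95. Relative to the median spot, Ezh2 was lower in WSP males by -0.43 under quantile normalization, -0.30 under median scaling and -0.65 without normalization, and Cbx5 by -0.61, -1.10 and -1.71. Under median scaling these were the 43.5th percentile of all differences for Ezh2 and the 33.1st for Cbx5. No fold is given for either in males, because the dimmest measurable spots on male WSP arrays, at 7.05 on this scale, lay above the male WSR means.

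In females neither gene passed the test of the lines, with WSP minus WSR differences of -0.0075 ± 0.036 for Ezh2 (95% interval -0.082 to 0.067, adjusted p = 0.94, limma) and 0.033 ± 0.069 for Cbx5 (-0.11 to 0.17, adjusted p = 0.83); 12.1% of tested spots were called. Ezh2 was at background on every female array, so its interval bounds little. The line difference in males was set against that in females: male minus female, it was -0.43 ± 0.051 for Ezh2 and -0.65 ± 0.098 for Cbx5, in a contrast with 53.1% of spots called. Both spots entered the fit through the male WSR arrays, so this difference was fixed by the filter and is given as a description. Over both sexes and treatments, WSP minus WSR was -0.22 ± 0.026 for Ezh2 and -0.29 ± 0.049 for Cbx5, with 54.4% called, and in air alone -0.18 ± 0.036 and -0.27 ± 0.069, with 39.8% called. Under cyclic loess, another scaling, the differences in air were -0.18 and -0.12 and were not called (adjusted p = 0.14 and 0.098).

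The difference between the sexes within WSR rests on the same 8 male WSR arrays and adds no second support. Males minus females was 0.43 ± 0.036 for Ezh2 (6.21 in males, 5.78 in females) and 0.61 ± 0.069 for Cbx5 (6.54 and 5.93), with 60.2% of spots called. On quantile-normalized values with both treatments pooled, Cbx5 was at least 1.22-fold brighter on male WSR than on female WSR arrays. This bound is set against the dimmest measurable spots on the female arrays, and was 1.12 in Air and 1.34 in EtOH mice. It holds for this scaling only and is not free of the brightness of the male WSR arrays. Under cyclic loess the Cbx5 difference itself was 0.50. For Ezh2 the pooled bound falls under 1, so no fold is given. Within WSP, males minus females was 0.0036 ± 0.036 for Ezh2 and -0.036 ± 0.069 for Cbx5 (adjusted p = 0.97 and 0.80, limma), with 18.7% called. Without normalization Cbx5 differed by -0.44 there (adjusted p = 0.0065), where the median spot differed by -0.59 and 63.1% of spots were called.

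**Figure D3:**
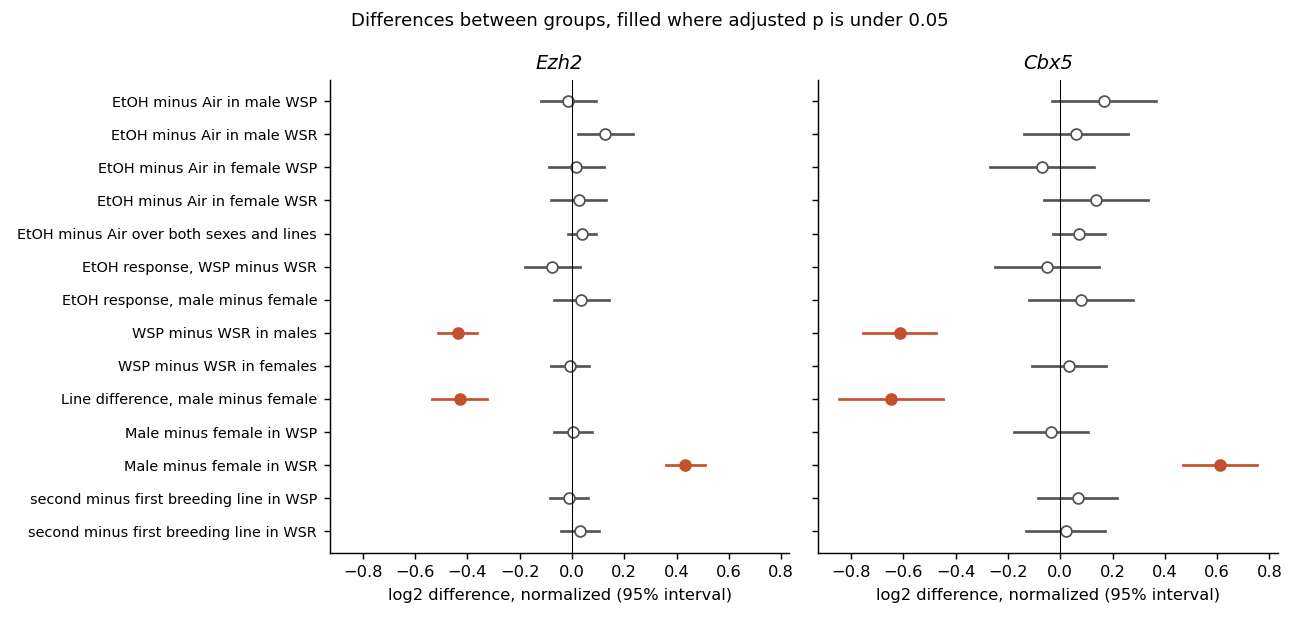
Differences in normalized log2 intensity between groups for Ezh2 and Cbx5, with 95% intervals from limma; filled orange points have an adjusted p under 0.05 over 2084 spots. The filled points are the contrasts that set male WSR mice, through which both spots passed the filter, against another group (WSP minus WSR in males -0.44 and -0.61, male minus female in WSR 0.43 and 0.61, and the line difference between sexes), and the ethanol and breeding line contrasts cross 0 or, for Ezh2 in male WSR, lie just above it at 0.13.

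The histone deacetylases did not reach the filter, so their line differences were taken on log2 times Background without normalization and tested by two-sided exact permutation over arrays, with adjustment over 10 tests (5 members in each sex). On that scale limma called 98.8% of the 2084 kept spots in males, 0 of them higher in WSP, with a median of -1.95. In females it called 12.3%, with a median of 0.026. A lower value in WSP males is thus the rule among kept spots before normalization. The histone deacetylase spots are not among these. Over all 4696 gene spots, male WSR arrays exceeded the other 24 by a median of 0.46, and Hdac1 by 0.96. All male WSR arrays lay above all others for 22.4% of gene spots, Hdac1 among them, and for 45.7% of kept spots. The share of gene spots that an exact permutation would call was not counted. Hdac1 was lower in WSP males, with a mean of -0.034 in WSP and 0.91 in WSR and a difference of -0.94 (adjusted p = 0.000518, exact permutation, n = 8 a line), and all 8 WSP arrays were below the WSR mean. After normalization with no filter Hdac1 was also lower in WSP males, by -0.11 ± 0.034 (adjusted p = 0.0087, limma), where 30.1% of 4696 spots were called. Hdac6 differed by -0.49 in males (adjusted p = 0.013, exact permutation, n = 8 a line) before normalization and by 0.0079 (adjusted p = 0.95) after it. Hdac5 differed by 0.29 in females (0.15 in WSP, -0.15 in WSR, adjusted p = 0.014, exact permutation, n = 8 a line) and by 0.049 after normalization (adjusted p = 0.47). Both of these unnormalized calls were lost when single replicates were left out, and neither spot was measurable on these arrays beyond single arrays of Hdac6.

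Breeding lines can be compared where the genes are measurable, in WSR males. Among them, Ezh2 was measurable on 4 of 4 arrays of WSR-2 and 4 of 4 of WSR-1, and so was Cbx5. Second minus first line, Ezh2 averaged 6.26 in WSR-2 and 6.16 in WSR-1 males, a difference of 0.093 ± 0.050 (95% interval -0.0095 to 0.20, adjusted p = 0.47, limma, n = 4 each), and Cbx5 6.56 in WSR-2 and 6.53 in WSR-1 males, a difference of 0.028 ± 0.10 (-0.19 to 0.24, adjusted p = 1.00), with 1.1% of spots called. Before normalization Ezh2 averaged 7.83 ± 3.94 times Background in WSR-2 and 5.40 ± 1.52 in WSR-1 males, and Cbx5 15.6 ± 4.62 and 13.6 ± 3.63 (SD, n = 4 each), with overlap for both. Averaged with the females, whose Ezh2 spots are at background, the normalized difference in WSR was 0.031 ± 0.035 for Ezh2 (adjusted p = 0.77, limma) and 0.021 ± 0.073 for Cbx5 (adjusted p = 0.93), with 0.048% of spots called. In WSP it was -0.012 ± 0.035 for Ezh2 (adjusted p = 0.95) and 0.067 ± 0.073 for Cbx5 (adjusted p = 0.81), with 0 spots called by limma and 225 at an unadjusted p under 0.05. Only in WSP was the ethanol dose different between the lines.

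The second design question is what remains of ethanol exposure after 21 days. In male WSR mice, where both genes can be read, Ezh2 averaged 6.28 in EtOH and 6.15 in Air mice, a difference of 0.13 ± 0.051 (unadjusted p = 0.019, adjusted p = 1.00, limma, n = 4 each). Cbx5 averaged 6.57 in EtOH and 6.51 in Air mice, a difference of 0.060 ± 0.098 (adjusted p = 1.00). In that contrast 0 of 2084 spots were called and 64 had an unadjusted p under 0.05. Ezh2 lay at the 92.8th and Cbx5 at the 79.1st percentile of all differences.

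Before normalization the Ezh2 values by breeding line did not overlap. In WSR-1 males they were 5.47 and 7.48 times Background in EtOH and 3.99 and 4.66 in Air mice, and in WSR-2 males 7.66 and 13.4 in EtOH and 5.80 and 4.46 in Air mice. Such a separation in both lines was found for 22.1% of kept spots. For Cbx5 it held in WSR-2 (19.2 and 19.9 in EtOH, 11.8 and 11.3 in Air mice), as for 60.4% of kept spots, and not in WSR-1 (12.4 and 18.02 in EtOH, 9.43 and 14.6 in Air mice), where it held for 34.3%. On log2 times Background the EtOH to Air ratio in male WSR mice was 1.72-fold for Ezh2 and 1.47-fold for Cbx5, each with p = 0.057 (two-sided exact permutation, n = 4 each, smallest possible p 0.0286) and 0.38 after adjustment over 20 tests. The EtOH arrays were also brighter as a whole, with 1834 to 2040 gene spots at 2 times Background against 1682 to 1979 on Air arrays, and the median kept spot differed by 0.31 in log2 times Background.

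Whether the genes were called depended on the scaling between arrays. With median scaling between arrays, Ezh2 was 0.47 ± 0.12 higher in EtOH than in Air male WSR mice (adjusted p = 0.018, limma) and Cbx5 0.41 ± 0.11 (adjusted p = 0.020), where 7.05% of spots were called, 145 higher and 2 lower, and the median spot stood at 0.16. With no normalization Ezh2 was 0.78 ± 0.19 higher (adjusted p = 0.017), with 4.75% called and a median of 0.31, and Cbx5 0.55 ± 0.20 was not called (adjusted p = 0.10). With cyclic loess Ezh2 differed by 0.43 ± 0.13 (adjusted p = 0.073) and Cbx5 by 0.18 ± 0.083 (adjusted p = 0.30), with 2.3% of spots called. Relative to the median spot, Ezh2 was higher by 0.12 under quantile normalization, 0.42 under cyclic loess, 0.31 under median scaling and 0.47 without normalization. Without male WSR EtOH replicate 4, where Ezh2 was brightest, the quantile-normalized Ezh2 difference was 0.073 (adjusted p = 1.00).

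**Figure D4:**
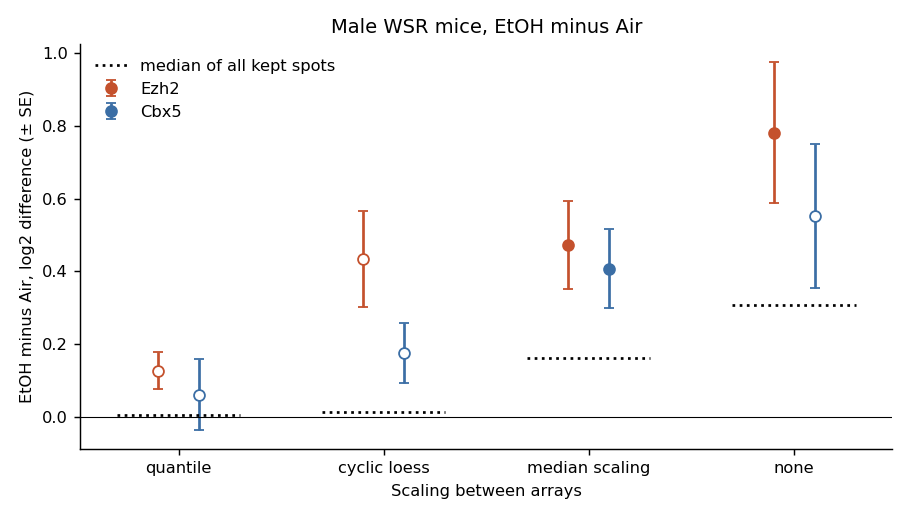
EtOH minus Air in male WSR mice, as log2 difference with SE, for Ezh2 (orange) and Cbx5 (blue) under 4 ways of scaling the arrays; filled points have an adjusted p under 0.05, and dotted lines are the median of 2084 kept spots. Ezh2 lies above the median spot under all 4 and is called under median scaling and with none. Its EtOH minus Air difference runs from 0.13 under quantile normalization, where the median spot is at 0.0056, to 0.78 with none, where it is at 0.31.

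In the other groups both genes were at or near background and neither passed the test of ethanol. EtOH minus Air for Ezh2 was -0.014 for WSP males, 0.017 for WSP females and 0.026 for WSR females (SE 0.051 each, adjusted p from 0.88 to 0.99, limma), with 0.048%, 0.384% and 0.048% of spots called. For Cbx5 it was 0.17, -0.071 and 0.14 in the same groups (SE 0.098 each, adjusted p from 0.56 to 0.88). With replicate 4 of every group left out, the 0.17 of WSP males became 0.000317. In female WSR mice Cbx5 lay at 1.29 to 1.82 times Background in EtOH and 0.842 to 1.34 in Air mice, all under 2, and with no normalization it differed by 0.56 ± 0.20 (adjusted p = 0.032) where the median spot differed by 0.49 and 35.7% of spots were called. Over all groups EtOH minus Air was 0.039 ± 0.026 for Ezh2 and 0.073 ± 0.049 for Cbx5 (adjusted p = 0.86 for both), with 0 spots called and 98 at an unadjusted p under 0.05. The response did not pass the test between lines (WSP minus WSR -0.075 for Ezh2 and -0.051 for Cbx5, adjusted p = 0.59 and 0.87, 0.24% called) or between sexes (male minus female 0.035 and 0.080, adjusted p = 0.89 and 0.87, 0 called and 122 at an unadjusted p under 0.05). Between lines it did pass under other scalings: Cbx5 was -0.29 with median scaling (adjusted p = 0.0496, limma), with 28.2% of spots called and the median spot at -0.20, and without normalization Cbx5 was -0.68 (adjusted p = 0.0081) and Ezh2 -0.55 (adjusted p = 0.021), with 56.4% called and the median spot at -0.59. For Hdac1, Hdac5 and Hdac6 the 12 exact tests of ethanol on log2 times Background gave no adjusted p under 0.05, the lowest being 0.67. Their smallest possible p is 0.0286 before adjustment over 20 tests, so a call was hardly within reach. The lack of a call therefore says little about ethanol and these genes.

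Other chromatin genes of the membrane were read from a list of title words. The list held 16 further spots, of which 7 passed the filter: Sin3a and Sin3b, scaffolds of the SIN3 deacetylase complex, histone 4, histone H1, HMG14 (a nucleosome-binding protein), enhancer of polycomb 1 (a subunit of the TIP60 acetyltransferase complex) and Mbd2, which binds methylated CpG. In the 4 ethanol contrasts within a sex and line 0 of 7 were called. At most 0.384% of all tested spots were called in them, so the 0 is near the share of all spots. In WSP against WSR males 1 was higher and 4 were lower (24.4% and 34% of all tested spots), with a list median of -0.075 against -0.0046 for all spots. The lower ones were HMG14 (-0.32, adjusted p = 0.016, limma), Sin3b (-0.24, 0.035), histone 4 (-0.18, 0.0497) and Sin3a (-0.075, 0.043). Sin3a, like Ezh2, was measurable on male WSR arrays alone, 4 of 8, and HMG14 on all 8 and on 1 other array. Both passed the filter through the male WSR arrays, so their lower values in WSP males are no independent support. Each of the 4 lower calls was lost under at least 4 other settings, and histone 4 turned to 2.03 in the authors' own score table.

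Mbd2 gave the one list call in females, lower by -0.50 ± 0.090 in WSP than in WSR (adjusted p = 0.00027, limma), where 4.56% of all spots were called as lower. It kept that direction under median scaling, cyclic loess and no normalization. In males it was 0.60 higher in WSP under quantile normalization (adjusted p = 9.99e-07) but -0.50 under median scaling and -1.50 without normalization, so its direction in males depends on the scaling. Of the spots that did not pass the filter, Ezh1, the other catalytic subunit of Polycomb repressive complex 2, was measurable on 0 arrays, and Rbbp4, a histone-binding subunit of the same complex, on 1. Markers of dividing cells, where Ezh2 is best known, were dim. Ki 67 was measurable on 0 of 8 male WSR arrays and on 1 other array (1.36 times Background on average on male WSR arrays, 0.99 on the others). Cyclin B1 related sequence 1 was measurable on 0 of 32 arrays. Proliferating cell nuclear antigen was measurable on 6 male WSR arrays and on no other (2.33 and 1.09). Being measurable on male WSR arrays alone held for 22.5% of the 2084 kept spots.

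Genes whose normalized values ran most like those of Ezh2 over the 32 arrays were the guidance receptor neuropilin (Pearson r = 0.97), GPI-anchored protein (0.96), the PPAR gamma cofactor Pgc2 (0.96), CD82 antigen (0.95) and retinoblastoma 1 (0.94). For Cbx5 they were bone morphogenetic protein 1 (0.94), procollagen type IV alpha 1 (0.94), lymphocyte protein tyrosine kinase (0.91), histocompatibility 2 class II antigen E beta (0.91) and ribosomal protein S6 kinase 2 (0.91). The median r over 452 titled spots was 0.027 for Ezh2 and 0.015 for Cbx5, and Ezh2 with Cbx5 gave 0.86. These correlations share the step between male WSR arrays and the rest. On deviations from the 8 group means, which remove it, Ezh2 ran most like neuropilin (0.73), CD82 antigen (0.71), GPI-anchored protein (0.65), the proteasome subunit beta 4 (0.59) and tuberous sclerosis 2 (0.58). Cbx5 ran most like procollagen type IV alpha 1 (0.79), caspase 6 (0.65), bone morphogenetic protein 1 (0.64), histidine rich calcium binding protein (0.63) and syntrophin basic 2 (0.60), the last of which lies on an adjacent spot. Ezh2 with Cbx5 then gave 0.083, against a median of 0.023 between Ezh2 and all titled spots.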

How the data were processed

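RNA of mouse prefrontal cortex was labelled with radioactive phosphorus and hybridised to 32 single-channel membrane arrays, per the labels' protocols. The deposited array files hold 1 intensity per spot and 1 Background intensity per array (6.96 to 30.3), not subtracted. The deposited table of scores is, per array, linear in the log2 intensity (to within 1.07e-06), with array medians of 7.29 to 8.55; its direction is that of intensity, and each array was scaled by the authors on its own. For the array platform and image software the entry is: not given in the sources used here. One file lists spots in another order and was joined by spot number.

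Intensities were corrected with normexp (offset 50), moved to log2 and quantile normalized over 4696 gene spots. Spots at 2 times Background on at least 4 arrays (2084) entered a limma fit (version 3.58.1, R 4.3.3) of 1 mean per group (or per group and breeding line) and an intensity trend, and p-values were adjusted by Benjamini-Hochberg over all 2084. The script was tested on simulated data. Exact permutation tests used scipy 1.17.1. The alternatives were other scalings, offsets and filters, no intensity trend, array weights, blocks, single contrasts, the scores and omitted arrays. All 5 members have a symbol in RefSeq. The members and gene lists were chosen with earlier results of these data known. All members, the called genes of the chromatin list and the 5 genes most like Ezh2 and Cbx5 by correlation are named. The number of arrays limits the precision.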

Additional observations from a re-analysis of the deposited data

Results flagged for a closer look

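The line difference (WSP minus WSR) of 3 genes was marked as differing between males and females by the limma test of that difference: -0.43 for Ezh2, -0.65 for Cbx5 and 1.10 for Mbd2 (log2, male minus female). Ezh2 and Cbx5 entered the fit through the male WSR arrays, so their values follow from the filter and are no independent support. Both kept their sign under every alternative tried, and Mbd2 turned to -0.060 under median scaling and -0.86 without normalization. In this contrast 53.1% of spots were called.

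Hdac1 on male WSP Air replicate 1 lay at 0.917 times Background, below the other 3 arrays of its group by more than Dixon's criterion allows; 40 groups were examined, and chance alone marks about 1 in 20. All 4 arrays were at background.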

How the results depend on the processing

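Of 525 recomputed values of Ezh2 and Cbx5, 495 kept their direction and side of the threshold, 8 gained a call (among them the Cbx5 and Ezh2 ethanol response between lines, Cbx5 in female WSR EtOH minus Air and Cbx5 in male minus female WSP, given in the results), 2 lost one and 20 turned direction, all 20 with an adjusted p over 0.05. In WSP against WSR males Ezh2 ranged from -2.60 (no normalization) to -0.40 (without replicate 4) and Cbx5 from -3.66 (no normalization) to -0.41 (cyclic loess), so the size depends on the scaling. With median scaling EtOH minus Air in male WSR mice was 0.472 for Ezh2 and 0.408 for Cbx5 and Ezh2 in females was 0.0057 for WSP minus WSR; without normalization, which like leaving out male WSR EtOH replicate 4 and the breeding-line contrast in WSR males was chosen after seeing the data, the Ezh2 values of these 2 contrasts were 0.782 and 0.114. Cbx5 in females was -0.0116 with breeding line as a block and -0.0027 in the authors' score table. In females, leaving out single replicates moved WSP minus WSR between -0.0328 and 0.0188 for Ezh2 and between -0.00263 and 0.060 for Cbx5.

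The other values that turned direction were, under cyclic loess, Cbx5 in female WSP EtOH minus Air (0.0338), Ezh2 in female WSR (-0.0296) and male WSP EtOH minus Air (0.00881) and Ezh2 in WSP against WSR females (0.0913); without normalization, Ezh2 in female WSP EtOH minus Air (-0.0424) and in male minus female WSP (-0.0375); and with single replicates left out, Ezh2 in female WSP EtOH minus Air (-0.00494 to 0.0424), in male WSP EtOH minus Air (-0.0576 to 0.0356), in male minus female WSP (-0.0208 to 0.0391) and in the ethanol response of males minus females (-0.0055 to 0.0642), and Cbx5 in female WSP EtOH minus Air (-0.109 to 0.00385). Hdac5 in males turned to 0.0734 with no filter and moved between -0.108 and 0.0467 without single replicates, and Hdac6 in males to 0.00788 with no filter. Mbd2 in males turned to -0.497 with median scaling, -1.50 without normalization and -0.152 in the authors' table, its difference between sexes to -0.0602 and -0.859, and histone 4 in males to 2.03 in the authors' table. The causes were not tested.

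Counts of called spots ranged over the settings from 561 to 2059 for the lines in males, 76 to 711 in females, 471 to 2067 for the difference between sexes and 0 to 147 for ethanol in male WSR mice. With the replicate block, EtOH minus Air in male WSR mice was 0.127 for Ezh2 and 0.0603 for Cbx5, and no call of either changed; same-numbered arrays deviated together (correlation over 0.1) in 5 of 16 pairs, from -0.103 to 0.405, so the numbers are not taken to pair samples. Neither gene passed a filter of 16 arrays, and Ezh2 could not be fitted in the authors' table. Signal limits both genes: outside male WSR mice Ezh2 lies at background and Cbx5 at or near it (2.06 times Background at most), so little can be read from differences there.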
